A study of Mus musculus with 8 samples.

Results

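The 41 genes described here run glycolysis or respond to low oxygen. They were taken by gene symbol, with earlier results of these data known, and are 41 of the 20190 genes named in the deposited expression tables. By role they are 3 transporters, 16 glycolytic enzymes, 4 regulators of glycolytic flux, 3 genes of oxygen sensing and 15 other hypoxia targets. Expression was measured by RNA-seq in 8 libraries from C57BL/6 mice, 2 per group. The groups are KO neurospheres (Hdac3 KO, labelled KO 7 and KO 8), WT neurospheres (wild-type, WT 5 and WT 6), KO cortex (Hdac3 KO, KO 1 and KO 2) and WT cortex (wild-type, WT 1 and WT 2). Neurospheres are clusters of neural stem cells and progenitors that grow in suspension, here kept to day 4 and started from E16.5 cerebrum, E standing for embryonic day. Cortex is the dorsal cerebral cortex at postnatal day 0, dissected without culture. Hdac3 encodes a class I histone deacetylase that works within the NCoR and SMRT corepressor complexes. The cortex KO titles name Emx1, and a deposited table names Emx1 with Cre, a recombinase driver active in dorsal telencephalic progenitors and their progeny, so cells of other origin in that tissue need not lack Hdac3. The sources used here do not give the driver in neurospheres or the part of Hdac3 removed. The design text lists 2 brains per genotype and tissue. Whether the libraries of a group shared a litter or a culture was not stated, so p-values measure only the spread between these libraries.

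Glycolysis splits glucose into pyruvate in the cytosol, and lactate dehydrogenase turns pyruvate into lactate, which leaves the cell through monocarboxylate transporters. At normal oxygen, prolyl hydroxylases mark the HIF-1α protein for destruction. At low oxygen HIF-1α persists, pairs with ARNT and binds hypoxia response elements built on the core ACGTG or GCGTG, and most glycolytic genes are among its known targets. Neural progenitors are known for a high rate of glycolysis, which falls as they differentiate into neurons.

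Sequence just upstream of the transcription start was searched for this core, because most glycolytic genes are known targets of HIF-1α. Not every one of the 41 genes need be a target. RefSeq promoter windows (GRCm38.p6, a build other than the mm9 of the expression files) were available for 36 of the 41 genes. The search covered the 250 bases before the start for ACGTG and GCGTG on both strands, where they read CACGT and CACGC. The palindrome CACGTG holds overlapping cores on both strands and was counted as 2. The stretches below run 5′ to 3′ on the strand of the gene, with cores in capitals. The first 7 are from genes that were lower in KO neurospheres. Ldhb and Hif1a are from genes that were not called there. The genes were picked as examples, and each stretch is from the window of its gene with the most cores. Their core numbers do not stand for the 2 groups. Pdk3, which was not called, had 4 cores, and Pfkl and Car9, which were lower, had 1 each.
Slc2a1, chr4:119108670-119108724, plus strand: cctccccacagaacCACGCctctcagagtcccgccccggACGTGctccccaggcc
Slc16a3, chr11:120949022-120949061, plus strand: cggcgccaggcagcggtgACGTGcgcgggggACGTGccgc
Pgk1, chrX:106186940-106186979, plus strand: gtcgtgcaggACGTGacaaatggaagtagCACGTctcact
Ldha, chr7:46845654-46845778, plus strand: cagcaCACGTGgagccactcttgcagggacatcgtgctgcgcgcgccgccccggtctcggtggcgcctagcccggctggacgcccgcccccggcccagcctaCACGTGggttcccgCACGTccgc
Bnip3, chr7:138909532-138909631, minus strand: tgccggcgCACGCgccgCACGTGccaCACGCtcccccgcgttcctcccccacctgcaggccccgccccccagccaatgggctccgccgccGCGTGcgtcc
Fam162a, chr16:36071572-36071651, minus strand: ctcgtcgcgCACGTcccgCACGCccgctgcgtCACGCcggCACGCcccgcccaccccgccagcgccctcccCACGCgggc
P4ha2, chr11:54100809-54100863, plus strand: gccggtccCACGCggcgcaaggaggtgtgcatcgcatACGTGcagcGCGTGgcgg
Ldhb, chr6:142508068-142508097, minus strand: gagcgggggagagcGCGTGcacactccagc
Hif1a, chr12:73907727-73907806, plus strand: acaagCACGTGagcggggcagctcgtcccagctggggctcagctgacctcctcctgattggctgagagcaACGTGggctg
At least 1 core stood upstream of 33 of the 36 genes (91.7%), against 63.5% of the 8825 genes of the neurosphere table with a window and 41.5% of all 27025 genes with one. A gene can have several windows, and per window a core was held by 41 of 51 windows of these genes (80.4%) and 38.6% of all 32851 RefSeq windows. It stood upstream of 17 of 19 genes that were lower in KO neurospheres (89.5%) and of 14 of 15 that were not called (93.3%). Gpi1, Tpi1 and Eno2 had no core in the window. The Ldha stretch holds 5 cores, and so do those of Bnip3 and Fam162a. A match is a string of letters and not a bound site.

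Levels are FPKM (fragment counts scaled for transcript length and library depth), so levels of different genes can be set side by side. A log2 fold change is KO minus WT on the log2(FPKM + 1) scale, which understates the change of low genes. Each tissue was tested with limma, with Benjamini-Hochberg adjustment over all genes tested, and a gene was called at an adjusted p under 0.05. Hdac3 itself was at 18.03 and 20.5 FPKM in KO neurospheres, against 34.4 and 28.7 FPKM in WT neurospheres, and did not pass the test there (limma adjusted p = 0.104). In cortex it was at 26.8 and 27.1 FPKM in KO and 48.1 and 46.1 FPKM in WT (limma adjusted p = 0.000319). In the authors' deposited DESeq2 results Hdac3 had a log2 fold change of −0.29 in neurospheres (DESeq2 adjusted p = 0.437). In cortex it had −0.52 there (DESeq2 adjusted p = 3.83e-07). Between the libraries of a group, log2(FPKM + 1) correlated across genes with a Pearson r of 0.9677 for KO and 0.976 for WT neurospheres, and 0.9946 for KO and 0.9956 for WT cortex. The tables hold FPKM and no counts. The authors' Cufflinks confidence bounds lay a median of 5.28% to 7.63% of the value on each side for these genes, with extremes for Slc16a3 (248% in KO 7) and Cox4i2. Both tables had been restricted on the WT libraries (lowest WT value 0.999 FPKM in neurospheres and 1.0 in cortex), so genes expressed only in KO lay outside them.

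In KO neurospheres 21 of the 38 genes in the table were lower than in WT and none was higher in the limma test, with Hif1a the single gene above 0. Of all 11408 genes tested, 0.929% were called lower and 0.219% higher. Of the 21, Slc16a3, P4ha2, Car9 and Cox4i2 averaged under 1 FPKM in KO and were in the table only through WT, and a gene with such values can only be lower. The other 34 of the 38 averaged 1 FPKM or more in KO, and 17 of them were lower and none higher, where 0.844% of the 11132 such genes of the table were lower and 0.225% higher. As genes present only in KO were outside the table, the lack of higher calls covers genes with a WT level alone. The 21 were the glucose transporter Slc2a1 and the lactate exporter Slc16a3, 8 of 15 glycolytic enzymes, the kinase Pdk1, the oxygen sensor Egln3 and 9 of 13 other hypoxia targets. The median log2 fold change was −1.26 over the 38 genes, or −1.19 without 2 genes listed at 0, against −0.15 over all genes. Both KO libraries lay below both WT libraries for 34 of the 38, an order that 38.3% of all genes had, and for none above both (14.6% of all genes). The summed level of the 15 enzymes was 1219 and 1316 FPKM in KO and 2891 and 2373 FPKM in WT, a ratio of means of 0.482. The 13 other hypoxia targets summed to 134 and 130 FPKM in KO and 349 and 336 FPKM in WT, a ratio of 0.385. Without WT 5 or without WT 6 no gene of the table was called, these genes included, although 29 and 33 of the 38 had an unadjusted p under 0.05. Without KO 7 the test called 19 and without KO 8 it called 21, where 3.42% and 5.46% of all genes were then lower.

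**Figure D1:**
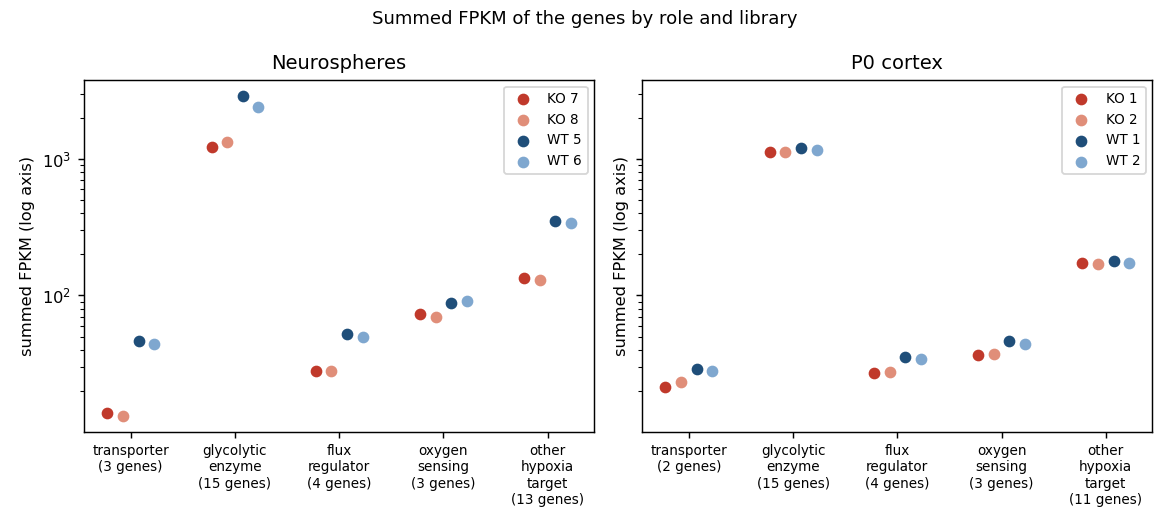
Summed FPKM (log axis) of the genes of each role, with a point for each library, in neurospheres (left panel) and P0 cortex (right panel). In neurospheres both KO sums lie below both WT sums for every role, with enzymes at 1219 and 1316 FPKM in KO and 2891 and 2373 FPKM in WT, while in cortex the enzyme sums are 1129 and 1127 FPKM in KO and 1192 and 1160 FPKM in WT.

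Markers of some cell types moved with genotype in these cultures. The summed level of 14 GABAergic interneuron markers was 1438 and 1442 FPKM in KO and 1060 and 860 FPKM in WT neurospheres, and 8 of the 14 were higher, where 0.219% of all genes were. The 11 radial glia and neural stem cell markers summed to 856 and 1030 FPKM in KO and 1644 and 1286 FPKM in WT. Of the 11, 1 was lower (Slc1a3), where 0.929% of all genes were. Neuronal markers summed to 1766 and 1638 FPKM in KO and 1660 and 1412 FPKM in WT, which overlapped, with 1 of 12 higher. Astrocyte markers summed to 326 and 430 FPKM in KO and 511 and 441 FPKM in WT, with 1 of 7 lower. Oligodendrocyte lineage markers summed to 232 and 242 FPKM in KO and 271 and 243 FPKM in WT, with 1 of 9 higher. The part of these shifts in the lower glycolytic and hypoxia genes was not tested. In bulk RNA, fewer cells that express a gene and less RNA per cell cannot be told apart. None of 13 endothelial and pericyte markers was in the neurosphere table, and 1 of 13 microglia and macrophage markers was. Of the erythroid markers 1 of 10 was in the table and higher, at 22.1 and 25.5 FPKM in KO and 9.87 and 5.47 FPKM in WT, and of the meningeal fibroblast markers 2 of 10 were, 1 of them higher.

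**Figure D2:**
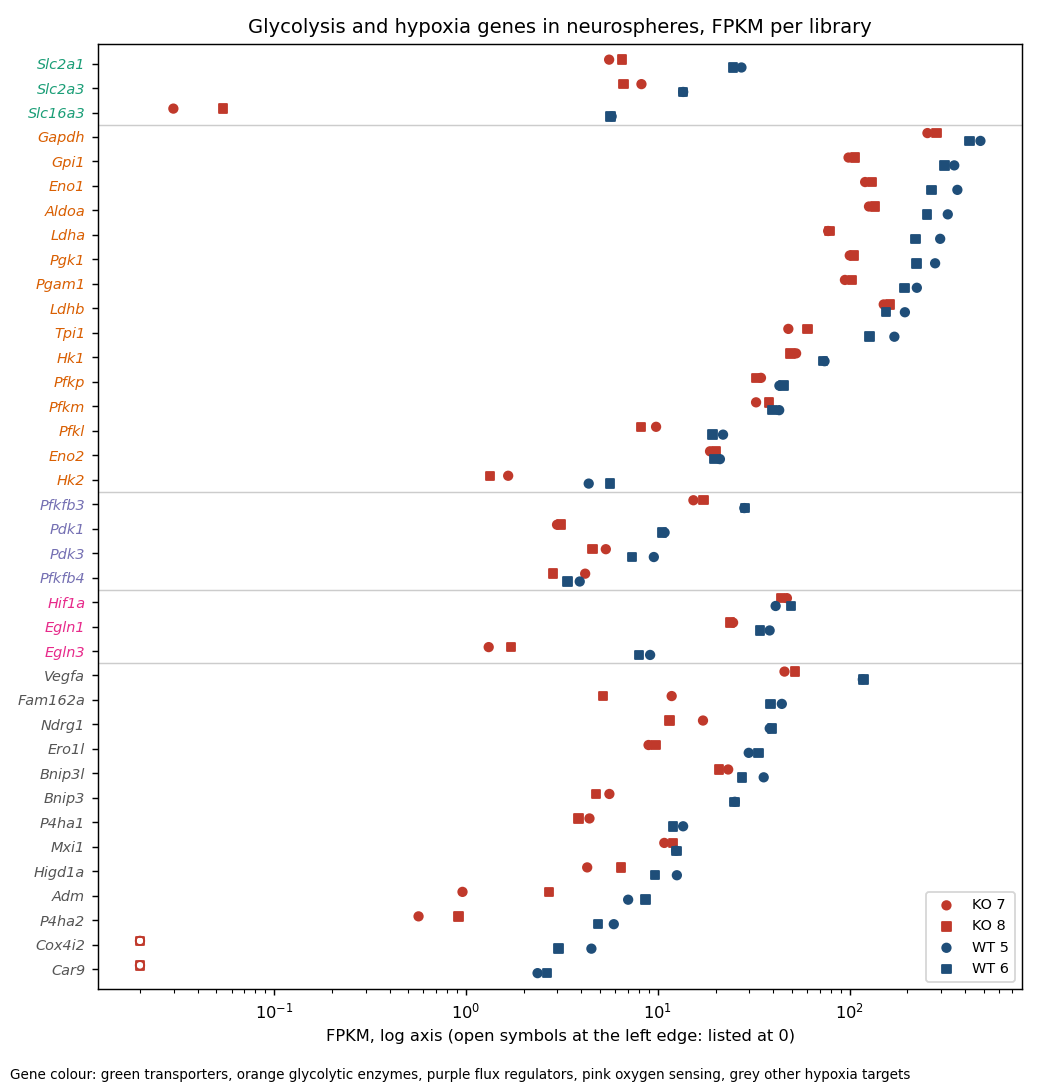
FPKM (log axis) of the 38 genes in each neurosphere library, grouped by role and ordered within a role by the WT mean, KO points drawn above WT points. KO and WT points are apart for Slc2a1, Ldha, Bnip3 and most others, and overlap for Eno2, Ldhb, Pfkfb4 and Hif1a.

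Glucose enters through SLC2A1 and SLC2A3, and lactate leaves through SLC16A3. Slc2a1, the widely used glucose transporter of glia and progenitors, was at 5.58 and 6.5 FPKM in KO 7 and KO 8, against 27.3 and 24.6 FPKM in WT 5 and WT 6. The groups were far apart, and the ratio of means was 0.233 (log2 fold change −1.94, SE 0.17, limma adjusted p = 0.00972). Slc2a3, the transporter typical of neurons, had 8.22 and 6.63 FPKM in KO and 13.6 and 13.5 FPKM in WT. It did not overlap between groups but missed the threshold (log2 fold change −0.79, SE 0.18, limma adjusted p = 0.0973). Slc16a3, which encodes the exporter MCT4 of cells that make much lactate, had 0.0299 and 0.0541 FPKM in KO neurospheres, against 5.75 and 5.66 FPKM in WT neurospheres. The Cufflinks bounds of both KO values began at 0 and ended at 0.148 and 0.175 FPKM, so the KO level was near the limit of what these libraries show and no ratio is given. Its log2 fold change was −2.69 (SE 0.23, limma adjusted p = 0.00972), the lowest value among the 38 genes.

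The enzymes follow in the order of the pathway, from hexokinase to lactate dehydrogenase. Hk1, the constitutive hexokinase of brain, was at 52.6 and 49.1 FPKM in KO and 73.97 and 72.5 FPKM in WT neurospheres, without overlap and without passing the test (limma adjusted p = 0.129). Hk2, the inducible hexokinase, had 1.66 and 1.33 FPKM in KO and 4.36 and 5.65 FPKM in WT, a ratio of 0.299 that also missed the threshold (limma adjusted p = 0.0653). Gpi1, glucose-6-phosphate isomerase, was among the most abundant enzymes in WT. Its level was 98.7 and 107 FPKM in KO and 351 and 312 FPKM in WT (log2 fold change −1.68, SE 0.17, limma adjusted p = 0.0148). The KO and WT libraries were well apart at a ratio of 0.310. Of the phosphofructokinases, which catalyse the committed step, Pfkl fell to 9.79 and 8.20 FPKM in KO, against 21.9 and 19.3 FPKM in WT (log2 fold change −1.11, SE 0.17, limma adjusted p = 0.0423). Pfkm had 32.5 and 37.9 FPKM in KO and 42.9 and 39.5 FPKM in WT, and Pfkp had 34.5 and 32.7 FPKM in KO and 43.03 and 45.2 FPKM in WT. Neither passed (limma adjusted p = 0.444 for Pfkm and 0.199 for Pfkp).

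Aldolase A splits the sugar, and Aldoa was at 126 and 135.5 FPKM in KO and 325 and 253 FPKM in WT neurospheres (log2 fold change −1.13, SE 0.19, limma adjusted p = 0.0483). Tpi1, triose phosphate isomerase, had 47.9 and 60.4 FPKM in KO and 171 and 127 FPKM in WT (log2 fold change −1.43, SE 0.20, limma adjusted p = 0.0354). WT 5 was the higher WT library for both genes, and all KO values were lower than all WT values. Gapdh, a frequent reference gene, was at 254 and 284 FPKM in KO and 480.3 and 421 FPKM in WT, a ratio of 0.597. The groups did not overlap, and the limma adjusted p was 0.129. Pgk1, phosphoglycerate kinase and the first ATP-making step, fell to 100.1 and 105.5 FPKM in KO, against 279 and 223 FPKM in WT (log2 fold change −1.27, SE 0.18, limma adjusted p = 0.0354). Pgam1, phosphoglycerate mutase, fell to 94.5 and 103 FPKM in KO, against 224 and 193 FPKM in WT (log2 fold change −1.07, SE 0.16, limma adjusted p = 0.0421). Pgam1 and Pgk1 thus stood at 0.473 and 0.41 of their WT means.

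Enolase has a general form, Eno1, and a neuronal form, Eno2. Eno1 had 120.4 and 131 FPKM in KO and 364 and 267 FPKM in WT neurospheres (log2 fold change −1.31, SE 0.20, limma adjusted p = 0.0421). Eno2 had 18.7 and 20.2 FPKM in KO and 21.1 and 19.6 FPKM in WT, and its groups overlapped (limma adjusted p = 0.843). Reads of Eno1 can be split with its near-identical copy Eno1b, which was listed at 16.4 and 18.4 FPKM in KO and 43.5 and 30.2 FPKM in WT, so the level of Eno1 is uncertain. Gapdh also has many pseudogenes that could share its reads. Ldha, whose subunit favours making lactate, was at 77.2 and 78.6 FPKM in KO and 296 and 221 FPKM in WT (log2 fold change −1.70, SE 0.19, limma adjusted p = 0.0196). Its ratio of 0.301 was the lowest among the enzymes but for Hk2. Ldhb, whose subunit favours using lactate, had 150.5 and 162 FPKM in KO and 194 and 154 FPKM in WT, overlapping and not called (limma adjusted p = 0.686). The enzyme calls of Pfkl, Aldoa, Pgam1 and Eno1 were lost with a pseudocount of 0.1.

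Within gene families the forms took different shares by genotype. A family here holds only its members among the genes described here, so other forms, such as Eno1b, were not counted. Ldha made up 33.9% and 32.6% of the summed Ldha and Ldhb FPKM in KO neurospheres, against 60.4% and 58.9% in WT neurospheres, so Ldha was the minor form in KO and the major form in WT. Hk2 made up 3.06% and 2.64% of the summed Hk1 and Hk2 FPKM in KO and 5.57% and 7.23% in WT. Pfkl made up 12.8% and 10.4% of the phosphofructokinase FPKM in KO and 20.3% and 18.5% in WT. Eno1 took a smaller share beside Eno2 in KO, at 86.5% and 86.7% in KO and 94.5% and 93.2% in WT. Slc2a1 took 40.4% and 49.5% of the summed Slc2a1 and Slc2a3 FPKM in KO and 66.8% and 64.6% in WT. Bnip3 made up 19.4% and 18.6% of the summed Bnip3 and Bnip3l FPKM in KO and 41.4% and 47.8% in WT. In the pairs Pdk1 with Pdk3, Egln3 with Egln1 and Pfkfb3 with Pfkfb4, the gene named before its partner also took a smaller share in both KO libraries. These shares are descriptions of the levels above and were not tested. The families were chosen with earlier results of these data known, and no such share was computed for other gene families. In cortex the named gene took a smaller share in both KO libraries in 7 of the 9 families, by smaller steps. Eno1 took 81.1% and 80.2% in KO cortex and 84.3% and 84.8% in WT cortex, and Bnip3 took 26.9% and 24.4% in KO and 31.4% and 30.4% in WT. Pfkl, Hk2, Egln3, Pfkfb3 and Pdk1 lay the same way, Pdk1 by little at 56.1% and 54.6% in KO and 56.2% and 61.0% in WT. A smaller share need not be a fall of the named gene. Eno1 averaged 128 FPKM in KO and 125 FPKM in WT cortex, while Eno2 averaged 30.7 FPKM in KO and 22.7 FPKM in WT. Bnip3 averaged 14.3 FPKM in KO and 16.2 FPKM in WT cortex, and Bnip3l 41.6 FPKM in KO and 36.3 FPKM in WT. The share of Slc2a1 overlapped between the cortex groups. For lactate dehydrogenase the order was the other way round in cortex, where Ldha made up 71.8% and 70.4% in KO and 65.4% and 66.0% in WT.

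**Figure D3:**
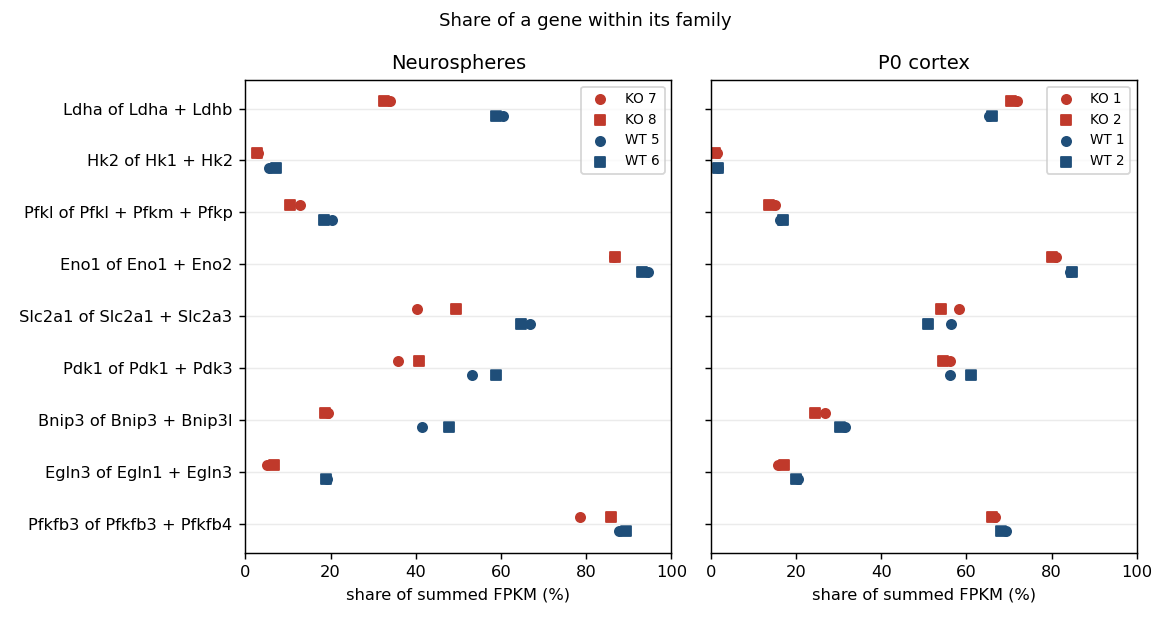
Share (%) of a gene in the summed FPKM of its family, per library, KO points above WT points, in neurospheres (left panel) and P0 cortex (right panel). A family holds only its members among the genes described here. In neurospheres the Ldha share is 33.9% and 32.6% in KO and 60.4% and 58.9% in WT, while in cortex it is 71.8% and 70.4% in KO and 65.4% and 66.0% in WT. The KO share is the smaller in both libraries for all 9 families in neurospheres and for 7 of 9 in cortex.

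Among the regulators of flux, Pdk1 was the single gene called. Its product, pyruvate dehydrogenase kinase 1, keeps pyruvate out of the mitochondrial acetyl-CoA pool. Pdk1 was at 2.98 and 3.13 FPKM in KO and 10.8 and 10.5 FPKM in WT neurospheres (log2 fold change −1.53, SE 0.19, limma adjusted p = 0.029). Pdk3, another kinase of the same enzyme, had 5.36 and 4.56 FPKM in KO and 9.53 and 7.36 FPKM in WT (limma adjusted p = 0.17). PFKFB3 and PFKFB4 make and remove fructose 2,6-bisphosphate, an activator of phosphofructokinase. Pfkfb3 was at 15.3 and 17.3 FPKM in KO and 28.2 and 28.4 FPKM in WT, apart but not called (limma adjusted p = 0.0723), whereas Pfkfb4 had 4.18 and 2.85 FPKM in KO and 3.92 and 3.38 FPKM in WT, with overlap.

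The Hif1a transcript, which encodes the oxygen-regulated factor, was not called. It was at 47.1 and 43.8 FPKM in KO and 41.1 and 49.4 FPKM in WT neurospheres, with overlapping groups (log2 fold change 0.01, limma adjusted p = 0.979). HIF-1α is mostly controlled as a protein, which was not measured. Egln3, a prolyl hydroxylase gene that is itself a hypoxia target, was at 1.31 and 1.72 FPKM in KO and 9.12 and 7.99 FPKM in WT (log2 fold change −1.93, SE 0.22, limma adjusted p = 0.0233). Egln1, the main sensor at normal oxygen, had 24.7 and 23.8 FPKM in KO and 38.3 and 34.2 FPKM in WT, without overlap and short of the threshold (limma adjusted p = 0.121).

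Of the other hypoxia targets, 9 of the 13 in the neurosphere table were lower, with a median log2 fold change of −1.66, or −1.42 without the 2 genes listed at 0. Bnip3, a receptor that sends mitochondria to autophagy, was at 5.59 and 4.76 FPKM in KO and 25.2 and 25.1 FPKM in WT (log2 fold change −2.09, SE 0.17, limma adjusted p = 0.00889). The WT libraries were nearly equal, and KO stood at 0.206 of their mean. Its relative Bnip3l was at 23.3 and 20.8 FPKM in KO and 35.6 and 27.4 FPKM in WT and was not called (limma adjusted p = 0.196). Fam162a, a mitochondrial protein induced by hypoxia, had 11.8 and 5.19 FPKM in KO and 44.3 and 38.8 FPKM in WT (log2 fold change −2.25, SE 0.32, limma adjusted p = 0.0354). The KO libraries of Fam162a differed widely from each other but both lay below WT, and the call was lost with a pseudocount of 0.1. Higd1a, a protein of the mitochondrial inner membrane, was at 4.29 and 6.44 FPKM in KO and 12.6 and 9.70 FPKM in WT (limma adjusted p = 0.119).

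A secreted factor and enzymes of the secretory pathway were among the 9. Vegfa, the vascular growth factor, was the most abundant of the other hypoxia targets, at 45.7 and 51.9 FPKM in KO and 117 and 118 FPKM in WT neurospheres (log2 fold change −1.25, SE 0.15, limma adjusted p = 0.0239). Its KO level was 0.415 of WT, with a tight spread in WT. Adm, the precursor of the vasodilator adrenomedullin, had 0.960 and 2.70 FPKM in KO and 7.005 and 8.62 FPKM in WT and missed the threshold (limma adjusted p = 0.0701). P4ha1 and P4ha2 encode catalytic subunits of collagen prolyl 4-hydroxylase. P4ha1 was at 4.40 and 3.86 FPKM in KO and 13.6 and 11.98 FPKM in WT (log2 fold change −1.42, SE 0.19, limma adjusted p = 0.0334). P4ha2 was at 0.566 and 0.912 FPKM in KO and 5.90 and 4.87 FPKM in WT (log2 fold change −1.88, SE 0.24, limma adjusted p = 0.0309). Both subunit genes were separated by genotype. Ero1l, the oxidase that makes disulfides in the endoplasmic reticulum, had 8.95 and 9.71 FPKM in KO and 29.8 and 33.6 FPKM in WT (log2 fold change −1.66, SE 0.16, limma adjusted p = 0.014).

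Ndrg1, a stress-responsive cytosolic protein, was at 17.2 and 11.5 FPKM in KO and 38.3 and 39.3 FPKM in WT neurospheres (log2 fold change −1.40, SE 0.20, limma adjusted p = 0.0371). Mxi1, an antagonist of MYC, was close in both genotypes, at 10.8 and 11.99 FPKM in KO and 12.5 and 12.5 FPKM in WT (limma adjusted p = 0.708). Car9, a carbonic anhydrase of the cell surface, and Cox4i2, an oxygen-regulated subunit of cytochrome c oxidase, were listed at 0 in both KO libraries. WT neurospheres had 2.36 and 2.65 FPKM of Car9 and 4.51 and 3.03 FPKM of Cox4i2. The neurosphere table listed 16 genes at 0 in both KO libraries, among them the general transcription factor gene Taf10 (named after its values were seen), so these entries may be failed estimates and no fold is given. Both genes were called lower by limma (adjusted p = 0.035 for Car9 and 0.0265 for Cox4i2), a result that rests on the listed zeros.

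Pkm2, Ankrd37 and Ndufa4l2 were not in the neurosphere FPKM table under those symbols. That table lists pyruvate kinase as Pkm, which was at 380.1 and 400.0 FPKM in KO and 572 and 516 FPKM in WT (log2 fold change −0.48, limma adjusted p = 0.26). The authors' deposited table of DESeq2 results, whose fold changes are not on the FPKM scale, puts Pkm2 at −0.30 on the log2 fold scale (adjusted p = 0.117), and Ndufa4l2, a hypoxia-induced mitochondrial protein, at −1.5 (adjusted p = 7.86e-06). In the authors' deposited table Ankrd37 had −0.02 with no adjusted p. Among the 38 genes with an adjusted p in the authors' deposited table, 25 were lower in KO neurospheres and none was higher, where 2.3% of all its genes were lower and 3.49% higher. Genes called in the authors' deposited table and not in the FPKM test were Slc2a3, Hk2, Gapdh, Pfkfb3, Egln1 and Ndufa4l2, with Gapdh at −0.57 (adjusted p = 0.000179) and Hk2 at −1.28 (adjusted p = 1.95e-05). Car9 had −1.33 there (adjusted p = 7.07e-05) and Cox4i2 −0.56 with no adjusted p, both from the authors' deposited table. Eno1 was absent from the authors' deposited neurosphere table.

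In KO cortex the differences were small and ran in both directions. Of the 34 tested, 11 were lower and 2 higher, where 17.7% of all 11988 genes were lower and 4.8% higher. The lower ones were Slc2a1, Slc2a3, Hk1, Pfkl, Pgam1, Ldhb, Pdk1, Pfkfb3, Egln3, Hif1a and Higd1a, and the higher ones were Eno2 and Cox4i2. The median log2 fold change was −0.19, against −0.10 over all genes. When libraries were rescaled by the median ratio, which centred all genes on 0, 3 were lower (Pfkl, Pfkfb3 and Egln3) and 4 higher (Eno2, Cox4i2, Aldoa and Bnip3l), where 7.72% of all genes were then lower and 9.57% higher. With quantile normalization 4 were lower and 3 higher, where 7.84% of all genes were lower and 8.22% higher. After either rescaling the shares among the 34 were therefore close to those of all genes. With the spread estimated over all 8 libraries none was called by limma (0.0457% of all genes were lower and 0.00913% higher), although 10 had an unadjusted p under 0.05. Both KO libraries lay below both WT libraries for 22 of 35 genes, an order that 50.2% of all genes had. They lay above both for 4 (15.5% of all genes), and the groups overlapped for 9. Leaving out any library left fewer calls among these genes and also among all genes, in fits with a single library in 1 group. In those fits 24 to 28 of the 34 log2 fold changes lay below 0, against 25 with all libraries.

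**Figure D4:**
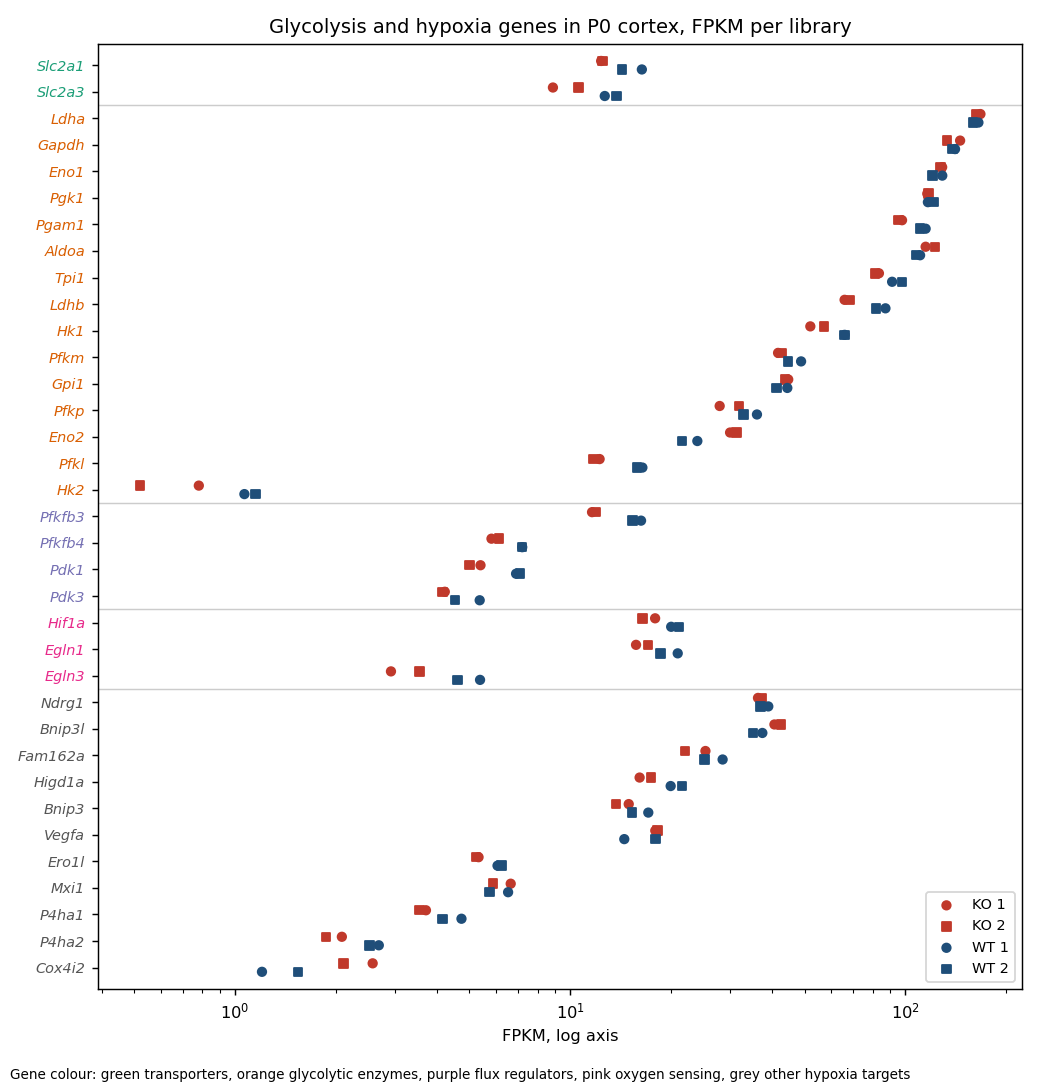
FPKM (log axis) of the 35 genes in each P0 cortex library, grouped by role and ordered within a role by the WT mean, KO points drawn above WT points. KO and WT points lie close together for most genes, with Eno2 and Cox4i2 higher in KO and Egln3 and Pfkl among the lower.

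The cortical changes were small for transporters and enzymes. Slc2a1 was at 12.4 and 12.5 FPKM in KO 1 and KO 2, against 16.4 and 14.3 FPKM in WT 1 and WT 2 (log2 fold change −0.28, SE 0.09, limma adjusted p = 0.0458). Slc2a3 was at 8.88 and 10.6 FPKM in KO and 12.7 and 13.8 FPKM in WT (log2 fold change −0.41, SE 0.10, limma adjusted p = 0.0187). Neither gene overlapped between groups, and neither passed after either rescaling. Pfkl was at 12.2 and 11.8 FPKM in KO and 16.4 and 15.8 FPKM in WT (log2 fold change −0.40, SE 0.07, limma adjusted p = 0.00818), a difference that was called under both rescalings. Hk1 had 52.04 and 57.2 FPKM in KO and 65.9 and 65.8 FPKM in WT (log2 fold change −0.27, SE 0.07, limma adjusted p = 0.0261), a call lost under both. Pgam1, at 97.7 and 95.3 FPKM in KO and 115 and 110.5 FPKM in WT, and Ldhb, at 65.8 and 68.2 FPKM in KO and 87.2 and 81.8 FPKM in WT, were lower (limma adjusted p = 0.0341 for Pgam1 and 0.00997 for Ldhb), and both calls were lost under the median ratio.

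Eno2, the neuronal enolase, was higher in KO cortex. It had 29.99 and 31.4 FPKM in KO and 23.9 and 21.5 FPKM in WT, a ratio of 1.35 (log2 fold change 0.42, SE 0.08, limma adjusted p = 0.00712), and the call was lost without KO 2. Of the enzymes that were lower in KO neurospheres, Pfkl and Pgam1 were also called lower in cortex, as given above. Others stood close in cortex, with Ldha at 167 and 162 FPKM in KO and 165 and 159 FPKM in WT. Pgk1 was at 116 and 117 FPKM in KO and 117 and 121 FPKM in WT. Gpi1 had 44.7 and 43.7 FPKM in KO and 44.4 and 41.2 FPKM in WT, and Eno1 had 129 and 127 FPKM in KO and 129 and 120.5 FPKM in WT. The level of Eno1 is uncertain in cortex too. The authors' deposited DESeq2 results list it there at a mean normalized count of 0.254 with no adjusted p. Ldha, Pgk1, Gpi1 and Eno1 all overlapped between the genotypes. Gapdh overlapped too, at 146 and 133 FPKM in KO and 141 and 138 FPKM in WT. Aldoa was at 115 and 123 FPKM in KO and 111 and 108 FPKM in WT, Tpi1 at 83.4 and 81.2 FPKM in KO and 91.3 and 97.6 FPKM in WT, and neither was called (limma adjusted p = 0.2 for Aldoa and 0.0582 for Tpi1). Pfkm and Pfkp also missed the threshold (limma adjusted p = 0.165 for Pfkm and 0.114 for Pfkp). Hk2, at 0.780 and 0.521 FPKM in KO and 1.07 and 1.15 FPKM in WT, lay under the mean of 1 FPKM needed for testing. Pkm was at 203 and 197 FPKM in KO and 219.8 and 207 FPKM in WT (limma adjusted p = 0.321).

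Pdk1, Pfkfb3, Egln3 and Hif1a were lower in KO cortex by small steps. Pdk1 was at 5.40 and 5.01 FPKM in KO and 6.90 and 7.09 FPKM in WT (log2 fold change −0.37, SE 0.09, limma adjusted p = 0.0194), and Pfkfb3 at 11.6 and 11.96 FPKM in KO and 16.3 and 15.3 FPKM in WT (log2 fold change −0.39, SE 0.08, limma adjusted p = 0.00914). Of these, Pfkfb3 was called under both rescalings and Pdk1 under neither. Egln3 had 2.92 and 3.55 FPKM in KO and 5.38 and 4.62 FPKM in WT (log2 fold change −0.50, SE 0.11, limma adjusted p = 0.0144), a call kept under the median ratio and lost under quantile normalization. Hif1a had 17.9 and 16.4 FPKM in KO and 20.01 and 21.1 FPKM in WT (log2 fold change −0.25, SE 0.08, limma adjusted p = 0.0471), and its call was lost under both rescalings. Pfkfb4, Pdk3 and Egln1 did not pass (limma adjusted p = 0.0781 for Pfkfb4, 0.184 for Pdk3 and 0.0562 for Egln1).

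Of the other hypoxia targets in cortex, Higd1a alone was lower, at 16.1 and 17.4 FPKM in KO and 19.9 and 21.6 FPKM in WT (log2 fold change −0.29, SE 0.08, limma adjusted p = 0.028), and not after rescaling. Cox4i2, a low gene, was higher at 2.58 and 2.11 FPKM in KO and 1.20 and 1.54 FPKM in WT (log2 fold change 0.49, SE 0.11, limma adjusted p = 0.0176), with Cufflinks bounds 29.3% to 50% of the value on each side. That call was lost without KO 1 and without WT 1. Bnip3 had 14.9 and 13.7 FPKM in KO and 17.1 and 15.3 FPKM in WT, and Bnip3l had 40.7 and 42.5 FPKM in KO and 37.4 and 35.1 FPKM in WT. Bnip3 lay lower and Bnip3l higher in every KO library, neither past the threshold (limma adjusted p = 0.178 for Bnip3 and 0.0703 for Bnip3l). Vegfa was at 17.9 and 18.2 FPKM in KO and 14.5 and 17.99 FPKM in WT, and Ndrg1 at 36.3 and 37.3 FPKM in KO and 38.99 and 36.9 FPKM in WT. Both overlapped between groups, as did Fam162a and Mxi1. Ero1l (5.33 and 5.23 FPKM in KO, 6.07 and 6.24 FPKM in WT), P4ha1 and P4ha2 lay lower in both KO libraries without a call. Slc16a3, Adm and Car9, present in the neurosphere table, were not in the cortex FPKM table, nor were Ankrd37 and Ndufa4l2. In the authors' deposited table for cortex 4 of 39 genes with an adjusted p were lower (Slc2a3, Pfkl, Pdk1 and Pfkfb3; 5.55% of all genes) and 3 higher (Gpi1, Eno2 and Bnip3l; 6.35% of all genes), with Slc16a3 at 0.14 on the log2 fold scale (adjusted p = 0.788) and Ndufa4l2 at 0.40 (adjusted p = 0.269).

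Markers of other cells were also shifted in cortex, where 4.8% of all genes were higher and 17.7% lower. Microglia and macrophage markers summed to 89.3 and 78.7 FPKM in KO and 67.4 and 63.7 FPKM in WT cortex (6 of 11 higher, 1 lower), and astrocyte markers to 707 and 639 FPKM in KO and 416 and 444 FPKM in WT (3 of 8 higher, 2 lower). Radial glia and neural stem cell markers summed to 1662 and 1558 FPKM in KO and 1185 and 1275 FPKM in WT (5 of 11 higher, 1 lower). Neuronal markers summed to 3229 and 3210 FPKM in KO and 3022 and 3046 FPKM in WT, with 5 of 12 higher and 1 lower. Endothelial and pericyte markers summed to 153 and 145 FPKM in KO and 132 and 135 FPKM in WT, with 1 of 13 higher. Meningeal fibroblast markers summed to 111 and 104 FPKM in KO and 86.1 and 82.0 FPKM in WT (6 of 9 higher), and oligodendrocyte lineage markers to 93.5 and 82.1 FPKM in KO and 74.9 and 63.8 FPKM in WT (4 of 9 higher). The sums of GABAergic interneuron markers (308 and 348 FPKM in KO, 389 and 348 FPKM in WT; 1 of 14 lower) and erythroid markers (447 and 361 FPKM in KO, 357 and 427 FPKM in WT; none of 4 called, none with an unadjusted p under 0.05) met or overlapped between genotypes. Their part in the values of Eno2, Slc2a1 and the others was not tested.

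The KO effect differed between the tissues for 17 of 34 genes. It was tested as the KO minus WT difference in neurospheres less that in cortex, each taken within its own table because the tables were normalized separately. The spread was estimated over all 8 libraries, though libraries correlated less within neurosphere groups than within cortex groups. The SE of a difference can thus be too small, as for Pdk1 at 0.16, against 0.19 in neurospheres alone. With that spread 12.2% of all genes were lower in neurospheres and 0.0457% in cortex, against 0.929% and 17.7% in the separate fits. The calls of a difference rest on it. All 17 were lower, where 0.977% of 10947 genes were lower and 0.42% higher. The 17 comprise Slc2a1, 7 of 14 enzymes (Gpi1, Aldoa, Tpi1, Pgk1, Pgam1, Eno1 and Ldha), Pdk1, Egln3 and 7 of 11 other hypoxia targets (Bnip3, Vegfa, Ndrg1, P4ha1, P4ha2, Ero1l and Cox4i2). Of these, P4ha2 and Cox4i2 were in the neurosphere table only through WT, and the level of Eno1 is uncertain in both tissues. The median difference was −1.0, or −0.85 without Cox4i2, against −0.05 over all genes. For Bnip3 the log2 fold changes were −2.09 in neurospheres and −0.17 in cortex, a difference of −1.92 (SE 0.17, limma adjusted p = 0.00425). Ldha had −1.70 in neurospheres and 0.02 in cortex (difference −1.73, SE 0.20, limma adjusted p = 0.0107). For Vegfa these were −1.25 and 0.15 (difference −1.41, SE 0.17, limma adjusted p = 0.0111). Fam162a, at a difference of −2.08, had an adjusted p of 0.05 after rounding in limma and was not called. Ldhb, Pfkfb4 and Hif1a had differences above 0, at 0.18, 0.18 and 0.26, none called. Tissue goes with age, culture and table here, which cannot be told apart. With a cortex library left out, few or none of the 34 genes kept a call, and calls among all genes were also few. Such a fit has a single library in 1 group. In each of these fits 31 of the 34 differences lay below 0, as with all libraries.

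**Figure D5:**
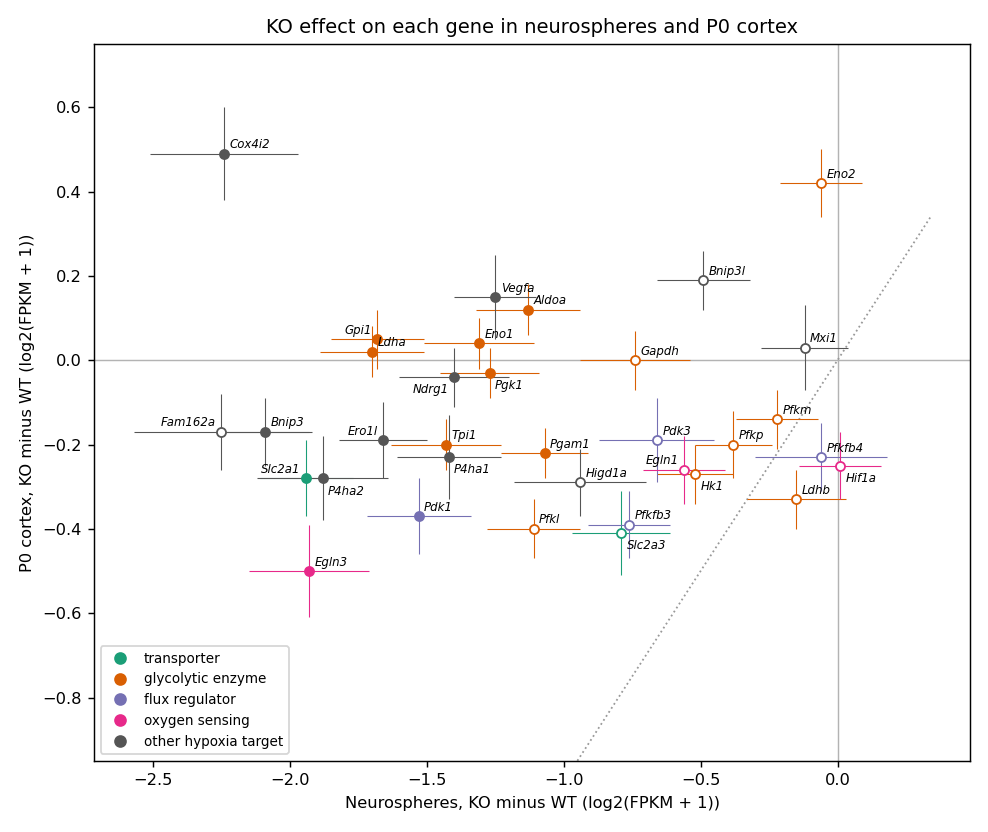
Log2 fold change (KO minus WT, log2(FPKM + 1)) of each of the 34 genes tested in both tissues, neurospheres on the x axis and P0 cortex on the y axis, with standard errors from limma. Filled points are the 17 genes whose KO effect differed between tissues, the dotted line marks equal effects, and the neurosphere value of Cox4i2 rests on KO libraries listed at 0. The filled points lie left of the line, as Bnip3 does at −2.09 in neurospheres and −0.17 in cortex, and open points such as Pfkm (difference −0.08), Pfkp (−0.19) and Hk1 (−0.25) lie near it.

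Slc2a1, Pfkl, Pgam1, Pdk1 and Egln3 were lower in both tissues in the limma test. These 5 are 23.8% of the 21 lower in KO neurospheres and 45.5% of the 11 lower in KO cortex. Of the 34 genes tested in both tissues, 5 of the 19 lower in neurospheres were lower in cortex (26.3%), and 6 of the 15 not lower in neurospheres were (40.0%). Of all 10947 genes tested in both, 29 of the 98 lower in neurospheres were lower in cortex (29.6%). Of the 10849 not lower in neurospheres, 1878 were lower in cortex (17.3%), less than the 40.0% among the 15, a difference not tested. The share among the 19 was thus close to that among all genes lower in neurospheres. Under the median ratio the cortex calls of Slc2a1, Pgam1 and Pdk1 were lost. In the authors' deposited DESeq2 results for cortex, Pfkl and Pdk1 were called lower. Slc2a1 (log2 fold change −0.19, DESeq2 adjusted p = 0.327) and Egln3 (−0.42, DESeq2 adjusted p = 0.0644) were not called there. Pgam1 lay above 0 in those results, at 0.13 (DESeq2 adjusted p = 0.781). The neurosphere ratios of KO to WT were 0.233 for Slc2a1, 0.286 for Pdk1 and 0.177 for Egln3, and the cortex ratios were 0.812 for Slc2a1, 0.744 for Pdk1 and 0.647 for Egln3.

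Further genes of the same and neighbouring pathways were counted in KO neurospheres, where 0.929% of all genes were lower. Of 17 further glycolysis genes none was called by limma (4 had an unadjusted p under 0.05), with a median log2 fold change of −0.36. Of 6 further HIF pathway genes, such as Arnt and Vhl, none was called (1 with an unadjusted p under 0.05), with a median of −0.04. Of 34 further hypoxia targets 4 were lower (Bhlhe40, Hmox1, Pgm2 and Ppp1r3c) and none higher, with a median of −0.36. Hmox1, the heme-degrading oxygenase, was at 19.5 and 26.6 FPKM in KO neurospheres and 94.6 and 82.3 FPKM in WT neurospheres (log2 fold change −1.91, SE 0.18, limma adjusted p = 0.0143). Pgm2, a phosphoglucomutase, was at 8.72 and 6.85 FPKM in KO and 25.8 and 23.3 FPKM in WT (log2 fold change −1.54, SE 0.18, limma adjusted p = 0.0236). None of 7 pentose phosphate genes was called (3 with an unadjusted p under 0.05). Of 24 genes of the citric acid cycle and pyruvate dehydrogenase, Pcx, pyruvate carboxylase, was lower at 9.75 and 8.62 FPKM in KO and 19.1 and 20.6 FPKM in WT (log2 fold change −1.04, SE 0.16, limma adjusted p = 0.0433). No test compared these lists with the 41 genes.

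The same lists were counted in cortex, where 17.7% of all genes were lower and 4.8% higher. Of 16 further glycolysis genes 2 were higher and 4 lower. Aldoc, the brain aldolase, was at 56.4 and 54.8 FPKM in KO cortex and 41.7 and 39.6 FPKM in WT cortex (limma adjusted p = 0.00302), and Eno3 was at 4.66 and 4.96 FPKM in KO and 3.25 and 3.46 FPKM in WT (limma adjusted p = 0.0144). Mpc1, a subunit of the mitochondrial pyruvate carrier, was lower at 46.4 and 44.1 FPKM in KO and 59.0 and 59.5 FPKM in WT (limma adjusted p = 0.0051). Pfkfb2 was lower as well, at 13.95 and 11.6 FPKM in KO and 17.0 and 17.3 FPKM in WT (limma adjusted p = 0.0168). Vhl, which marks HIF-1α for destruction, was the 1 of 6 HIF pathway genes called, at 21.8 and 20.8 FPKM in KO and 26.8 and 24.2 FPKM in WT (limma adjusted p = 0.0485). Of 35 further hypoxia targets 6 were lower and 1 higher, no more than the share among all genes, with Igfbp3 at 9.32 and 8.62 FPKM in KO and 14.1 and 12.04 FPKM in WT (limma adjusted p = 0.00885), Plod2 at 2.57 and 2.50 FPKM in KO and 3.52 and 4.11 FPKM in WT (limma adjusted p = 0.0159), and Rora at 1.89 and 1.79 FPKM in KO and 1.20 and 1.35 FPKM in WT (limma adjusted p = 0.0441). Lower calls were made for 3 of 7 pentose phosphate genes, among them Tkt and G6pdx (limma adjusted p = 0.0257 and 0.0282), and for 6 of 24 citric acid cycle and pyruvate dehydrogenase genes, among them Pdha1 and Idh3a (limma adjusted p = 0.00886 for each).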

How the data were processed

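Per the submitters' processing notes, reads were handled by the authors with Cufflinks, Bowtie, DESeq2, featureCounts, STAR and Trim Galore on build mm9. The sources used here give neither versions nor the use of strand in counting. Per the file headers, the authors deposited FPKM values per library with confidence bounds, and ratio columns of KO over WT, of which 6 were not used. The authors' deposited DESeq2 tables hold a signal column (mean normalized count), a log2 fold change, its SE and a p-value with its adjusted value. The authors' deposited enrichment tables list for each term its p-value and odds ratio. Depth is unknown from FPKM.

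Rows with a date in place of a symbol (20 in neurospheres, 21 in cortex) were dropped, and of repeated symbols (20 and 29) the row of highest mean was kept. Genes averaging 1 FPKM or more were tested on log2(FPKM + 1) with limma-trend (limma 3.58.1, R 4.3.3, two-sided, Benjamini-Hochberg over all genes, threshold 0.05), separately by tissue, and on all 8 libraries with 4 group means for the difference between tissues. The procedure was tested on simulated data. Alternatives were a pseudocount of 0.1, no filter, 2 rescalings, the spread over all libraries, each library left out, and a replicate block. The genes, lists and tests were chosen with earlier results of these data known. Every one of the 41 genes is named, and from each other pathway list the 2 genes of smallest adjusted p per tissue and direction. Tables and figures were made in Python 3.11.15 with pandas 2.3.3 and matplotlib 3.10.9.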

Additional observations from a re-analysis of the deposited data

Results flagged for a closer look

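The KO effect differed between the tissues for 17 genes, by a test of the difference itself that used the spread over all 8 libraries. Values are the log2 fold change in neurospheres minus that in cortex. Of the other hypoxia targets, Cox4i2 had −2.73 (set by KO neurosphere libraries listed at 0), Bnip3 −1.92, P4ha2 −1.60, Ero1l −1.47, Vegfa −1.41, Ndrg1 −1.36 and P4ha1 −1.19. Of the enzymes, Ldha had −1.73, Gpi1 −1.72, Eno1 −1.35, Aldoa −1.25, Pgk1 −1.24, Tpi1 −1.24 and Pgam1 −0.85. The glucose transporter Slc2a1 had −1.66, the oxygen sensor Egln3 −1.42 and the kinase Pdk1 −1.16. Adjusted p-values from limma ran from 0.00425 for Gpi1 and Bnip3 to 0.0446 for Tpi1 and Pgam1.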

How the results depend on the processing

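In neurospheres 21 genes were called in the reported fit and 15 to 21 under the other scalings, pseudocount and filter, all lower in KO, where 0.473% to 0.818% of all genes were lower. With the spread over all 8 libraries 28 of 34 were lower, but so were 12.2% of all genes, against 0.929% in the reported fit. Leaving out a library gave 0 to 21, with 0.0% to 5.46% of all genes lower. In cortex 13 were called, 7 under the median ratio, 7 under quantile normalization, 0 with the spread over all 8 libraries, and 2 to 10 with a library left out (5.16% to 12.5% of all genes lower). For the difference 17 were called, 16 to 19 under other scalings, pseudocount and filter (0.932% to 1.38% of all genes lower), and 0 to 21 with a library left out (0.0274% to 7.12%). The cause of these shifts was not tested. Each fit with a library left out has a single library in 1 group. Signs that turned belong to genes not called, with log2 fold changes near 0. Under the median ratio they became 0.09 for Eno2, 0.02 for Ldhb, 0.07 for Pfkfb4 and 0.03 for Mxi1 in neurospheres, and 0.11 for Gapdh, 0.09 for Pgk1 and 0.07 for Ndrg1 in cortex. Under quantile normalization they became 0.04 for Eno2, 0.11 for Ldhb, 0.17 for Pfkfb4 and 0.02 for Mxi1 in neurospheres, and 0.01 for Gapdh and 0.04 for Ndrg1 in cortex. With a library left out, values crossed 0 for Ldhb (−0.31 to 0.02), Pfkfb4 (−0.27 to 0.16) and Hif1a (−0.12 to 0.14) in neurospheres. In cortex they did so for Gpi1 (−0.01 to 0.1), Gapdh (−0.07 to 0.06), Pgk1 (−0.06 to 0.0), Eno1 (−0.01 to 0.09), Ldha (0.0 to 0.05) and Mxi1 (−0.05 to 0.11), and in the difference for Pfkm (−0.19 to 0.03) and Pfkfb4 (−0.04 to 0.39). With the replicate number as a block 11 genes were called in cortex, without Pgam1 and Hif1a. KO 1 minus KO 2 correlated at −0.0955 with WT 1 minus WT 2 across genes, so no strong shift shared by number was seen. A single correlation cannot exclude that libraries of the same number shared a litter or a batch. No paired analysis was possible in neurospheres because the KO and WT numbers differ. The spread between 2 libraries and the unknown depth limit every value, most of all for genes near 1 FPKM.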

Other observations

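The authors' deposited gene ontology table for neurospheres listed glycolytic process at rank 2 of 2001 terms, with 7 of 23 genes (Ldha, Pfkl, Tpi1, Pgam1, Pgk1, Aldoa and Hk2) and an adjusted p of 0.000143. The same deposited table gave cellular response to hypoxia 7 of 133 genes, 6 of them from the genes above, with an adjusted p of 0.198. The sources used here do not give the input genes of that enrichment.

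Common reference genes did not behave alike. Actb, chosen after its values were seen, was at 809 and 806.5 FPKM in KO neurospheres and 893 and 729 FPKM in WT neurospheres (limma adjusted p = 0.999), where Gapdh stood at a ratio of 0.597. In cortex Actb was at 1235 and 1245 FPKM in KO and 990.5 and 948 FPKM in WT (limma adjusted p = 0.0102), where Gapdh overlapped between genotypes.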
